A study of Mus musculus with 12 samples.

Results

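H3K27ac, a histone mark of active promoters and enhancers, was described at the genes of 7 transcription factors of the epithelial-to-mesenchymal transition (EMT): Snai1, Snai2, Zeb1, Zeb2, Twist1, Prrx1 and Tcf4. Members were the intervals of the deposited ChIP-seq table whose gene name is one of these symbols, which gave 82 of the 126464 intervals and 6 of its 22264 gene names. Tcf4 had 48 intervals, Twist1 and Prrx1 had 12 each, Snai1 and Snai2 had 4 each and Zeb1 had 2, while 0 intervals carried the name Zeb2. The measured cells were 4T1, a mouse mammary carcinoma line grown in culture, kept for 48 h under 1 of 6 treatments. These were vehicle, acetate at 5 mM, etomoxir at 50 µM, the pair etomoxir + SB204990 with the latter also at 50 µM, and each of the inhibitor treatments with acetate added, named etomoxir + acetate and etomoxir + SB204990 + acetate. Acetate can be turned into acetyl-CoA, the donor of histone acetyl groups. Etomoxir blocks carnitine palmitoyltransferase 1, which admits fatty acids to mitochondria, and SB204990 blocks ATP citrate lyase, which makes acetyl-CoA from citrate. Each treatment had 2 of the 12 libraries, called set 1 and set 2 after a suffix that their names share and whose meaning the labels do not give. All treatments, vehicle included, received 7.5% human chromatin as a spike-in, and no library of another antibody or of input was used here. The study asked whether the supply of acetyl-CoA sets H3K27ac at EMT genes, and the comparisons here ask it of the genes of the transcription factors themselves.

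During EMT, epithelial cells lose their junctions and polarity and gain motility. Snai1 (Snail) and Snai2 (Slug) are zinc finger repressors, and Zeb1 and Zeb2 are zinc finger homeodomain repressors. All of these bind E-box sequences in epithelial promoters such as that of Cdh1, the gene of E-cadherin. Twist1 and Tcf4 (E2-2) are basic helix-loop-helix factors, of which Tcf4 is an E protein that pairs with tissue-restricted partners. Prrx1 is a homeodomain factor of mesenchymal cells. In carcinoma cells these factors are known for repressing epithelial genes and for accompanying invasion and dissemination.

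To show what sequence lies at these start sites, the 250 bases upstream of a RefSeq start are printed for the members whose promoters were found in RefSeq (build GRCm38.p6, the assembly also called mm10). 4 of the 7 genes were matched, and Snai2, Zeb1 and Tcf4 were not. Capitals mark CACCTG or its reverse complement CAGGTG, the E-box form known to be bound by the Snail and Zeb repressors. Each sequence runs 5′ to 3′ on the gene's own strand.
Snai1, chr2:167537945-167538194, plus strand: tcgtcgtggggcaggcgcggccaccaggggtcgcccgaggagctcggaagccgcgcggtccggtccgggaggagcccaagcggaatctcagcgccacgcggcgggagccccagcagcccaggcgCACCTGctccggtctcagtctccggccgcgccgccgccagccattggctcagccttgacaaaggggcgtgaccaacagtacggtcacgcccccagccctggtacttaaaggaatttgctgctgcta
Twist1, chr12:33957421-33957670, plus strand: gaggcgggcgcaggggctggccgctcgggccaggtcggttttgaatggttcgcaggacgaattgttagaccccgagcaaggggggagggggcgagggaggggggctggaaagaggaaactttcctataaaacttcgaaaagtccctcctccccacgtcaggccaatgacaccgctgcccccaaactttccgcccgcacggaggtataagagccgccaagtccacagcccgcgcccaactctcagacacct
Prrx1, chr1:163313651-163313900, minus strand: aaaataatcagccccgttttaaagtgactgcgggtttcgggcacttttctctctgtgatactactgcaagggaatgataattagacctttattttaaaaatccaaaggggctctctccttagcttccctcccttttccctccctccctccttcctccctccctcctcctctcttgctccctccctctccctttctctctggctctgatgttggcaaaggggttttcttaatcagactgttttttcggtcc
Zeb2, inner start, chr2:45110278-45110527, minus strand: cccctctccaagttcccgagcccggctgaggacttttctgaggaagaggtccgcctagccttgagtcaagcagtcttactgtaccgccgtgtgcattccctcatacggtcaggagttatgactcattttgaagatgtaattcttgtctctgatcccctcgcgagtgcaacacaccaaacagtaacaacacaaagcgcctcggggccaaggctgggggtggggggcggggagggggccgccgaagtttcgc
Zeb2, outermost start, chr2:45117443-45117692, minus strand: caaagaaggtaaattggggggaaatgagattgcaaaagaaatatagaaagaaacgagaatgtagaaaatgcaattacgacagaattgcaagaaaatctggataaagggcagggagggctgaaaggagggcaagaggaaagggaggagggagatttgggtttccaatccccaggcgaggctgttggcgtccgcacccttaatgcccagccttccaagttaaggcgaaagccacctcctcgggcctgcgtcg

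The start sites of Snai1, Twist1, Prrx1 and the inner Zeb2 transcript lay inside an H3K27ac interval, and the outermost Zeb2 start lay 5011 bases from the nearest one. The other 2 of the 4 Zeb2 starts in RefSeq, not printed, also lay outside any interval, 822 and 848 bases away. Over all 32851 RefSeq start sites, 14792 lay in an interval. The Snai1 sequence held 27 CpG dinucleotides and the Twist1 sequence 18, against a median of 6 over all promoters. The inner Zeb2 sequence held 14, the outermost 9 and the Prrx1 sequence 4. CACCTG, read on both strands, occurred once in the Snai1 sequence and in none of the other 4, and 17.2% of all promoters of this length held it. A match of letters is a description and says nothing of binding.

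The intervals at the 7 genes differed widely in level, and for several genes the strong intervals did not bear the gene's name (the map of intervals around each gene). Levels are spike-in scaled reads, the read count in an interval multiplied by a factor for its library, averaged over the 12 libraries unless said otherwise. Divided by length, the median gene name of the table held 21.2 scaled reads per kb. Positions follow the table, which uses mm10. Of the 82 member intervals 42 were annotated as intronic, 28 as intergenic, 5 as exonic, 4 as transcription end sites and 3 as promoters. Their lengths ran from 181 to 16239 bases with a median of 620, and 8 of them held a start site of their own gene.

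**Figure D1:**
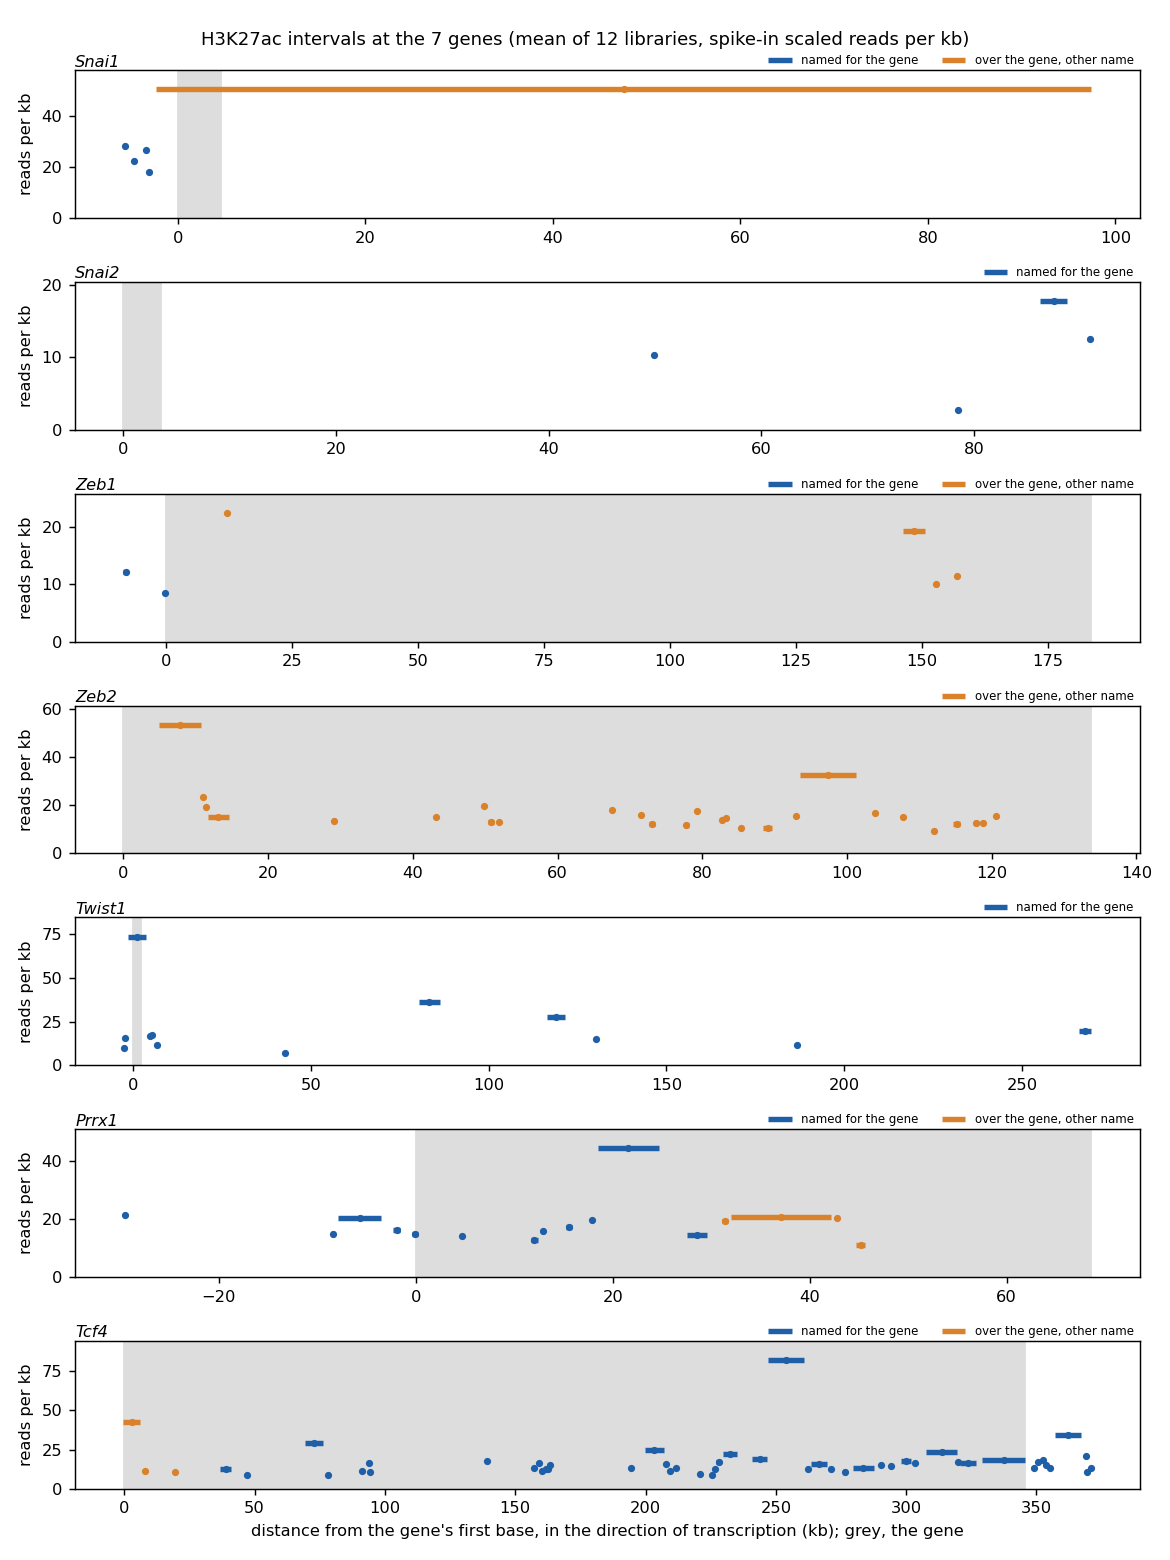
Level of each interval (y axis, spike-in scaled reads per kb, mean of 12 libraries) against its distance from the first base of the gene (x axis, kb, in the direction of transcription). Blue intervals bear the gene's name, orange ones lie over the gene or within 2 kb upstream under another name, and the grey band is the gene. The strongest Twist1, Prrx1 and Tcf4 intervals are blue, and every interval over Zeb2 is orange.

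Twist1 (chr12:33957671-33959829) was covered whole by its strongest interval, chr12:33956064-33961110, at 73.6 scaled reads per kb, at the 99.5th percentile of all intervals. The next 3 lay 83.3, 119 and 268 kb downstream, at 36.0, 27.5 and 19.5 scaled reads per kb, and the last 2 of these were in introns of the neighbouring gene Hdac9. The table gives them to Twist1 by distance, so which gene they act on is not measured.

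Tcf4 (chr18:69343356-69689079) had its strongest interval inside the gene, at chr18:69590283-69604208, with 1142 scaled reads or 82.0 per kb. It held 10 annotated Tcf4 start sites. The interval at the start of the gene, chr18:69343080-69349493, held 22 Tcf4 start sites and 42.7 scaled reads per kb but was named Gm4402. The other 12 named Tcf4 intervals with a mean of at least 50 scaled reads ran from 12.5 to 34.6 per kb.

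Prrx1 (chr1:163245119-163313710) had its strongest interval at an inner start site, chr1:163289062-163295229, at 44.5 scaled reads per kb. The interval over 4 of the 5 Prrx1 starts, chr1:163313494-163314071, held 8.57 scaled reads in all, 14.8 per kb. An intergenic interval just upstream, chr1:163317196-163321576, held 88.9 scaled reads. A 10153-base interval within the gene, chr1:163271533-163281685, held 211 and was named Gm20471.

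Snai1 (chr2:167538195-167542814) lay entirely within an interval of 99732 bases, chr2:167535885-167635616, the 37th longest of the table. It also spans Ube2v1, is named Gm11476 and held 5047 scaled reads, 50.6 per kb. The 4 intervals that do bear the name Snai1 lay 3.02 to 5.67 kb upstream of the start and held 6.10 to 6.93 scaled reads each. Reads of the long interval cannot be divided among the genes beneath it.

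Zeb2 (chr2:44983632-45117395) held 27 intervals, and all were named Zeb2os, its antisense neighbour. The strongest, chr2:45106732-45112431, covered 13 Zeb2 start sites with 53.4 scaled reads per kb, and the second, chr2:45016116-45023881, had 32.5. Zeb1 (chr18:5591860-5775467) had a named promoter interval of 2.43 scaled reads, chr18:5591345-5591632, and a named upstream interval of 11.5, chr18:5583335-5584285. Its strongest interval by position, chr18:5738117-5742438, held 83.3 and was named Gm10125. Snai2 (chr16:14705852-14709385) had no interval over the gene or the 2 kb before it, and its named intervals lay 49.9 to 90.9 kb downstream, the strongest with 44.9 scaled reads at chr16:14792091-14794622.

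Summed over all named intervals and divided by their length, Twist1 had the highest level of the 6 gene names, 36.3 scaled reads per kb, at the 84.1st percentile of all gene names. Prrx1 followed at 27.3 and Tcf4 at 26.5, and then came Snai1 at 23.0, Snai2 at 15.9 and Zeb1 at 11.3, the last at the 11.7th percentile. By position, over the gene and 2 kb upstream, Twist1 was again highest at 73.6 per kb, followed by Snai1 at 50.6, Zeb2 at 27.1, Tcf4 at 26.97, Prrx1 at 25.2 and Zeb1 at 17.2. For comparison, Cdh1 held 53.7 and Krt8, a keratin of simple epithelium, 50.2. 8 of 10 epithelial markers were in the table, at a median percentile of 90.2 of the reads per kb, with Krt18 and Krt7 absent as names. Stromal markers (6 of 6 present) had a median percentile of 26.1, leukocyte markers (4 of 6) 55.1 and endothelial markers (3 of 4, with Tek absent) 54.3. Those lists move with acetate as the members do: the epithelial markers held 34.9 scaled reads per kb with vehicle and 49.1 with acetate, and the stromal markers 15.02 and 20.05. A different mix of cell types was not tested. In bulk chromatin, more acetylation per cell and more cells carrying the mark cannot be told apart.

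Reads in intervals numbered from 7179165 (set 2, etomoxir + SB204990) to 16676442 (set 1, acetate), and spike-in factors ran from 0.398 to 1. As each set holds a library with a factor of 1, the factors are on a separate scale per set, so the differences in set 1 and in set 2 are given beside the pooled estimates of the member genes and intervals that rose. A level of set 1 is for the same reason best read against set 1, and one of set 2 against set 2. Nothing in the labels says that libraries of a treatment came from separate cultures, so the p-values measure only the spread between libraries. No input background was subtracted here.

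The summed level was highest with etomoxir + acetate in both sets for 5 of the 6 gene names, and for Zeb1 in set 1 alone (the plot of levels by treatment). The scaled total of all intervals was highest there as well, at 1.365e+07 in set 1 and 1.291e+07 in set 2. That total was lowest with etomoxir + SB204990 in both sets. Tcf4 held 2780.2 and 2812 scaled reads in the vehicle libraries of set 1 and set 2, 3889 and 3600.2 with acetate, 3163 and 3259 with etomoxir, 4993 and 4776 with etomoxir + acetate, 2018 and 2471 with etomoxir + SB204990, and 2968 and 3909.6 with etomoxir + SB204990 + acetate. Both libraries with acetate were above both without it in each of the 3 backgrounds. Twist1 held 737 and 643 with vehicle, 980.3 and 839.96 with acetate, 765 and 809.7 with etomoxir, 1192 and 1149 with etomoxir + acetate, 569 and 575 with etomoxir + SB204990, and 801 and 1006 with etomoxir + SB204990 + acetate. Here too the groups with and without acetate did not overlap in any background, and the etomoxir + SB204990 libraries were the lowest of all. The scaled totals of all intervals did not overlap either. They were 6.82e+06 and 7.68e+06 with vehicle, 1.01e+07 and 9.99e+06 with acetate, and 8.01e+06 and 7.85e+06 with etomoxir. With etomoxir + SB204990 they were 5.35e+06 and 7.18e+06, and 8.59e+06 and 1.13e+07 once acetate was added. How many of all gene names or intervals lack such overlap was not counted, here and below.

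Prrx1 held 303 and 402 scaled reads with vehicle, 465 and 512 with acetate, 387 and 369.9 with etomoxir, 703 and 683 with etomoxir + acetate, 259.7 and 395 with etomoxir + SB204990, and 481 and 559 with etomoxir + SB204990 + acetate. Again the acetate libraries were the higher ones in every background. Snai2 held 43.5 and 38.0 with vehicle, 54.3 and 61.2 with acetate, 38.9 and 33.8 with etomoxir, 56 and 73.0 with etomoxir + acetate, 29.9 and 59 with etomoxir + SB204990, and 43.3 and 68.5 with etomoxir + SB204990 + acetate. Its groups overlapped across sets in the etomoxir + SB204990 background, where acetate was the higher in each set.

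Snai1 held 8.88 and 28.5 scaled reads with vehicle, 21.1 and 23.3 with acetate, 22.9 and 13.2 with etomoxir, 49 and 47.0 with etomoxir + acetate, 8.76 and 19 with etomoxir + SB204990, and 27.2 and 39.0 with etomoxir + SB204990 + acetate. With acetate set 1 was higher than with vehicle and set 2 lower, and the other 2 pairs did not overlap. Zeb1 held 12.2 and 9.51 with vehicle, 16.3 and 15.5 with acetate, 15.4 and 13.2 with etomoxir, 26 and 10.6 with etomoxir + acetate, 10.8 and 17 with etomoxir + SB204990, and 9.70 and 11.3 with etomoxir + SB204990 + acetate. At these low counts Zeb1 with etomoxir was higher with acetate in set 1 and lower in set 2, and with etomoxir + SB204990 it was lower in both.

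**Figure D2:**
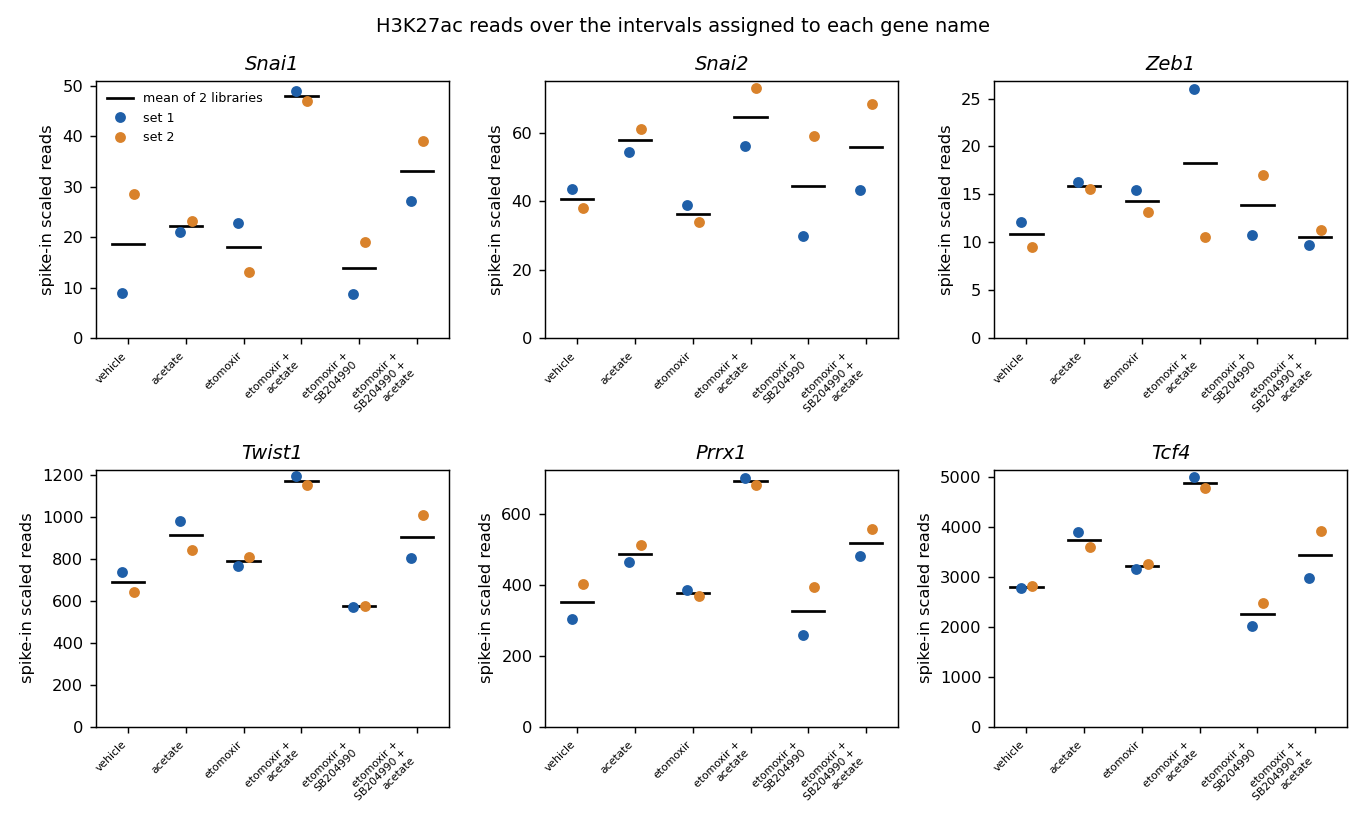
Spike-in scaled reads summed over the intervals named for each gene (y axis, from 0) in the 6 treatments (x axis). Points are libraries, blue for set 1 and orange for set 2, and bars are means of 2 libraries. The etomoxir + acetate libraries are the highest for Tcf4, at 4993 and 4776, as for Twist1 and Prrx1.

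H3K27ac at the member genes was higher with acetate when the 3 backgrounds were averaged. In limma, fitted over all 19458 gene names with a mean of at least 10, 5 of the 6 member names rose at an adjusted p under 0.05, against 88.2% of all gene names. The median log2 fold change was 0.55 over the members and 0.63 over all gene names. Of the 82 intervals 34 had a mean of at least 10 and were tested, and 28 of these rose, 82.4%, against 77.2% of all 63903 intervals tested. The member intervals had a median of 0.62 and all intervals one of 0.64. The members' shares and medians lay near those of the whole table. Intervals just inside the limit of 10 had means of 10.9 and 11.4, and those just outside 9.37 and 8.89.

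Prrx1 rose by a log2 fold change of 0.68 ± 0.12 (SE, limma adjusted p = 4.54e-05), with 0.79 in set 1 and 0.58 in set 2. Tcf4 rose by 0.54 ± 0.10 (limma adjusted p = 5.6e-05), with 0.57 and 0.52 in the sets. Twist1 rose by 0.54 ± 0.11 (limma adjusted p = 8.51e-05), with 0.51 and 0.57. These are 1.45- to 1.60-fold differences, and all were in the same direction in 6 of 6 pairs of libraries.

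Snai1 rose by 1.04 ± 0.30 (limma adjusted p = 0.00297), with 1.25 in set 1 and 0.83 in set 2, on the sum of 4 intervals that were each below the limit of 10. Snai2 rose by 0.55 ± 0.22 (limma adjusted p = 0.0196), with 0.45 and 0.66, nearly all of it from 1 interval that held 90.0% of its reads. Zeb1 did not pass the test, at 0.13 ± 0.33 (limma adjusted p = 0.701), with 0.33 in set 1 and -0.06 in set 2.

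Read by position instead of by name, which was chosen after seeing the data, 6 of the 6 genes with an interval rose, Zeb1 and Zeb2 included, against 88.2% of all gene names in that fit. Over the Zeb2 gene, vehicle libraries held 610.45 and 627.5 scaled reads and acetate libraries 855 and 820.1. The etomoxir libraries held 694 and 637, etomoxir + acetate 1067 and 1114, etomoxir + SB204990 468 and 592, and etomoxir + SB204990 + acetate 646 and 933. The acetate groups of Zeb2 were above their counterparts in each background, and the averaged log2 fold change was 0.57 ± 0.11 (SE, limma adjusted p = 9.72e-05), with 0.52 in set 1 and 0.62 in set 2.

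The intervals over Zeb1 rose by 0.65 ± 0.17 (SE, limma adjusted p = 0.00125), with 0.75 in set 1 and 0.55 in set 2, a change carried by the intronic interval named Gm10125, which rose by 0.70 ± 0.16 (limma adjusted p = 8.07e-05), with 0.70 and 0.69 in the sets. The named Zeb1 intervals gave 2.28% of the reads over that gene and its upstream 2 kb. The long interval over Snai1 held 3803 and 4436 scaled reads with vehicle, 5748 and 5778 with acetate, 4215 and 4217 with etomoxir, and 7238 and 7124 with etomoxir + acetate. With etomoxir + SB204990 it held 3019 and 3545, and 4947 and 6497 once acetate was added. It rose by 0.68 ± 0.10 (limma adjusted p = 2.11e-10), with 0.70 in set 1 and 0.67 in set 2, and the share of this change that belongs to Snai1 itself cannot be told apart from that of its neighbours.

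The call of a rise with acetate rested on the spike-in factors. With libraries scaled by the median ratio of their reads, which takes out any change common to the intervals, 0 of the 34 intervals and 0 of the 6 gene names were called by limma (2 and 0 at an unadjusted p under 0.05). Of all intervals and of all gene names 0% were called on that scale too. The median over all gene names then was -0.01, Tcf4 stood at -0.10, Twist1 at -0.10, Snai2 at -0.08, Zeb1 at -0.47, Prrx1 at 0.04 and Snai1 at 0.43, so that Tcf4, Twist1 and Snai2, called on the spike-in scale, and Zeb1, which was not called, turned in sign. With each library's share of reads multiplied by its factor, 0 intervals and 0 gene names were called as well (2 and 0 unadjusted), against 0% of all intervals and 0% of all gene names, at a median of 0.43 over all gene names. On that scale, which also uses the spike-in factors, Prrx1 stood at 0.48, Tcf4 and Twist1 at 0.34 each, Snai2 at 0.35, Snai1 at 0.84 and Zeb1 at -0.06. The direction of the 5 called gene names thus held on both scales that use the factors. Their call held on the first alone, and on the second 0% of all gene names were called.

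Within single backgrounds, most member genes rose with an inhibitor present, and the number of members called against vehicle depended on the fit. For acetate against vehicle, 0 of the 34 intervals and 0 of the 6 gene names were called by limma (8 and 3 at an unadjusted p under 0.05, 0 and 0 called by edgeR), against 0.0955% of all intervals and 0% of all gene names. The member names ranged from 0.40 to 0.52 on the log2 scale, with a median of 0.46 against 0.48 for all gene names. Tcf4 stood at 0.42 ± 0.18 (SE, limma adjusted p = 0.102), Prrx1 at 0.48 ± 0.21 and Twist1 at 0.40 ± 0.18. In set 1 and set 2 these were 0.48 and 0.36 for Tcf4, 0.62 and 0.35 for Prrx1, and 0.41 and 0.39 for Twist1. With the limit raised to a mean of 50, 4 of 19 member intervals passed, against 25.6% of all intervals. With set as a term of the fit, 2 of the 34 intervals and 0 of the 6 gene names passed, against 3.26% of all intervals and 19.98% of all gene names. In a fit of these 4 libraries alone, 9 intervals and 3 gene names passed, against 23.3% and 61.5%.

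Added to etomoxir, acetate raised 19 of the 34 intervals and 4 of the 6 gene names, against 56.4% of all intervals and 78.2% of all gene names. Prrx1 rose by 0.87 ± 0.21 (SE, limma adjusted p = 0.00301), Tcf4 by 0.60 ± 0.18 (limma adjusted p = 0.00545), Twist1 by 0.57 ± 0.18 (limma adjusted p = 0.00893) and Snai1 by 1.41 ± 0.53 (limma adjusted p = 0.0194). In set 1 and set 2 the changes were 0.86 and 0.88 for Prrx1, 0.66 and 0.55 for Tcf4, 0.64 and 0.50 for Twist1, and 1.07 and 1.76 for Snai1. Snai2 stood at 0.80 ± 0.37 (limma adjusted p = 0.0524) and Zeb1 at 0.21 ± 0.57. The median of all gene names was 0.79, so Tcf4 and Twist1 lay 0.18 and 0.22 below it and Prrx1 0.08 above it. With libraries scaled by the median ratio of their reads, Tcf4 stood at -0.27 and Twist1 at -0.30. On that scale and on shares of reads multiplied by the factor, 0 members were called, against 0% of all intervals and gene names. Leaving out any of the 4 libraries lowered the counts to between 3 and 12 intervals and between 1 and 3 gene names, with 3 intervals and 1 gene name without the etomoxir + acetate library of set 1. The shares over all features fell as well, to between 8.05% and 27.03% of intervals and between 28.8% and 57.3% of gene names.

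Added to etomoxir + SB204990, acetate raised 16 of the 34 intervals and 4 of the 6 gene names, against 27.4% of all intervals and 57.7% of all gene names. When the limit was raised to a mean of 50, it raised 17 of 19 members and 79.8% of all intervals. In a fit of these 4 libraries alone 0 intervals and 0 gene names passed, against 0% of all intervals and gene names higher. Without the intensity trend 0 intervals passed, against 0% of all intervals. Prrx1 rose by 0.69 ± 0.21 (SE, limma adjusted p = 0.0126), Twist1 by 0.65 ± 0.18 (limma adjusted p = 0.00894), Tcf4 by 0.61 ± 0.18 (limma adjusted p = 0.00973) and Snai1 by 1.26 ± 0.53 (limma adjusted p = 0.043). In set 1 and set 2 the changes were 0.89 and 0.50 for Prrx1, 0.49 and 0.81 for Twist1, 0.56 and 0.66 for Tcf4, and 1.53 and 1.00 for Snai1. Snai2 stood at 0.37 ± 0.37 and Zeb1 at -0.34 ± 0.57. These counts turned on single libraries: without the shallow etomoxir + SB204990 library of set 2 they were 27 intervals and 5 gene names (71.6% and 91.4% of all features higher), without that of set 1 they were 4 and 1 (8.28% and 19.1%), and without the etomoxir + SB204990 + acetate library of set 2 they were 0 and 0 (3.31% and 0%).

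**Figure D3:**
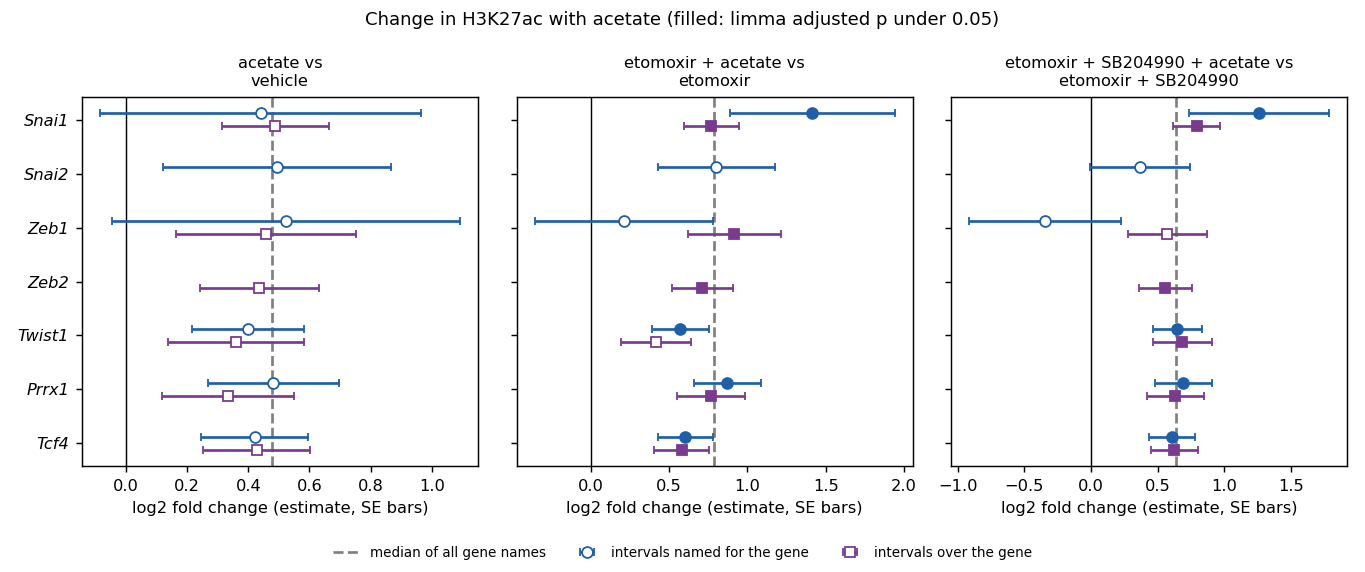
Log2 fold change with acetate (x axis, limma estimate with SE bars) of the 7 genes (y axis) in the 3 backgrounds. Blue circles are sums over named intervals, purple squares sums over intervals at the gene, filled symbols passed an adjusted p of 0.05, and the dashed line is the median of all gene names (0.48, 0.79 and 0.64 from left to right). All symbols are open for acetate against vehicle, and with etomoxir Zeb1 stands at 0.21 by name and 0.92 by position.

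The acetate difference did not differ detectably between backgrounds. For the interaction of acetate with etomoxir 0 of the 34 intervals and 0 of the 6 gene names were called by limma (1 and 0 unadjusted, 0 and 0 by edgeR), against 0% of all intervals and 0% of all gene names. Tcf4 differed by 0.18 ± 0.25 (SE) on the log2 scale, Twist1 by 0.17 ± 0.26, Prrx1 by 0.39 ± 0.30 and Snai1 by 0.97 ± 0.74. In set 1 and set 2 these were 0.17 and 0.19, 0.23 and 0.12, 0.24 and 0.54, and -0.10 and 2.04, so that Snai1 did not keep its sign. For the interaction with etomoxir + SB204990 there were 0 and 0 calls (0 and 0 unadjusted, 0 and 0 by edgeR), against 0.00156% and 0%. With standard errors of this size, differences between backgrounds of the size of the acetate change itself were not detectable.

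The inhibitors alone gave no call at the members. For etomoxir against vehicle, 0 intervals and 0 gene names were called by limma (1 and 0 unadjusted, 0 and 0 by edgeR), against 0.0626% of all intervals and 0.0154% of all gene names, with a median of 0.15 over the member names and 0.14 over all. For etomoxir + SB204990 against vehicle the counts were 0 and 0 (3 and 0 unadjusted, 0 and 0 by edgeR), against 0.0532% and 0.00514%, with medians of -0.19 and -0.18. For etomoxir + SB204990 against etomoxir they were 0 and 0 (12 and 2 unadjusted, 0 and 0 by edgeR), against 0.0469% and 0%, with medians of -0.32 and -0.33. There Tcf4 stood at -0.52 ± 0.18 (SE, limma adjusted p = 0.234) and Twist1 at -0.46 ± 0.18 (limma adjusted p = 0.234), with -0.65 and -0.40 in the sets for Tcf4 and -0.43 and -0.49 for Twist1. Without the etomoxir + SB204990 library of set 2, 14 intervals and 3 gene names were called lower in this comparison, against 25.1% of all intervals and 63.8% of all gene names. Against vehicle 4 intervals were then called lower, against 3.92% of all intervals.

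With acetate present, etomoxir + acetate against acetate gave 0 and 0 calls (6 and 2 unadjusted, 0 and 0 by edgeR), against 0.155% of intervals and 0.0771% of gene names, with medians of 0.38 over the members and 0.43 over all. In a fit of those 4 libraries alone, 16 intervals and 4 gene names were called higher, against 45.2% and 73.1% of all. Etomoxir + SB204990 + acetate against acetate gave 0 and 0 (0 and 0 unadjusted, 0 and 0 by edgeR), against 0.0438% and 0.0514%, with medians of -0.05 and -0.02. Etomoxir + SB204990 + acetate against etomoxir + acetate gave 0 and 0 (15 and 2 unadjusted, 0 and 0 by edgeR), against 0.00156% and 0.00514%, with medians of -0.47 and -0.46. All 34 intervals were lower with SB204990 in this last comparison, and 30 were lower in both sets. Without the etomoxir + SB204990 + acetate library of set 2 it called 6 intervals and 2 gene names lower, against 15.2% of all intervals and 36.4% of all gene names.

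Among the member intervals tested, the size of the rise differed within genes (the plot of change against level). Averaged over the backgrounds, 20 of 23 Tcf4 intervals rose, 4 of 4 of Twist1, 3 of 5 of Prrx1, 1 of 1 of Snai2 and 0 of 1 of Zeb1, against 77.2% of all intervals. An intronic Tcf4 interval, chr18:69380168-69384343, held 33.7 and 26.1 scaled reads with vehicle, 54.3 and 75.8 with acetate, 38.3 and 34.9 with etomoxir, 96 and 84.5 with etomoxir + acetate, 25.1 and 46 with etomoxir + SB204990, and 59.5 and 50.3 with etomoxir + SB204990 + acetate. Its acetate libraries were the higher ones in each background, and it rose by 1.01 ± 0.19 (SE, limma adjusted p = 1.38e-06), with 1.06 in set 1 and 0.96 in set 2.

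The Prrx1 interval upstream of the gene, chr1:163317196-163321576, held 47.7 and 61.8 scaled reads with vehicle, 98.4 and 112 with acetate, 73.7 and 64.1 with etomoxir, 120 and 148.8 with etomoxir + acetate, 53.0 and 58 with etomoxir + SB204990, and 93.1 and 136 with etomoxir + SB204990 + acetate. No groups with and without acetate overlapped, and it rose by 0.97 ± 0.16 (SE, limma adjusted p = 3.03e-08), with 0.84 in set 1 and 1.09 in set 2. A second intronic Tcf4 interval, chr18:69623077-69630868, rose by 0.81 ± 0.15 (limma adjusted p = 1.09e-06), with 1.00 and 0.62 in the sets. In the etomoxir background this interval rose by 1.03 ± 0.26 (limma adjusted p = 0.00112), the first Tcf4 interval by 1.28 ± 0.34 (limma adjusted p = 0.00136) and the Prrx1 interval by 0.95 ± 0.28 (limma adjusted p = 0.00375). The differences in set 1 and set 2 were 1.10 and 0.96, 1.30 and 1.25, and 0.70 and 1.202.

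In the etomoxir + SB204990 background the largest changes among called intervals with a mean of at least 50 were those of this Prrx1 interval, at 1.01 ± 0.28 (SE, limma adjusted p = 0.00331), and of Tcf4 intervals at chr18:69641474-69645209 and chr18:69543183-69550266, at 0.94 ± 0.30 and 0.81 ± 0.23. In set 1 and set 2 these were 0.80 and 1.22, 1.23 and 0.65, and 0.97 and 0.65. For Snai2, the interval with most of its reads rose by 0.57 ± 0.20 over the backgrounds (limma adjusted p = 0.00798), with 0.44 and 0.71 in the sets.

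The strongest interval of Tcf4 rose least among the called members. It held 1069 and 898 scaled reads with vehicle, 1349 and 1045 with acetate, 1169 and 1350.3 with etomoxir, 1439 and 1491 with etomoxir + acetate, 864 and 702 with etomoxir + SB204990, and 941 and 1381 with etomoxir + SB204990 + acetate. In each set it was higher with acetate in all 3 backgrounds, although the acetate library of set 2 lay below the vehicle library of set 1, and it rose by 0.35 ± 0.10 over the backgrounds (SE, limma adjusted p = 0.00159), with 0.25 in set 1 and 0.45 in set 2. The strongest Twist1 interval, over the gene itself, held 354 and 281 with vehicle, 479 and 343 with acetate, 341 and 374 with etomoxir, 479 and 474 with etomoxir + acetate, 286 and 222 with etomoxir + SB204990, and 349.9 and 472 with etomoxir + SB204990 + acetate. Its groups overlapped across sets where no inhibitor was given, while in each set acetate was higher in all 3 backgrounds, and it rose by 0.49 ± 0.12 (limma adjusted p = 9.14e-05), with 0.40 and 0.57 in the sets. The strongest Prrx1 interval rose by 0.62 ± 0.12 (limma adjusted p = 2.29e-06), with 0.70 and 0.54.

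**Figure D4:**
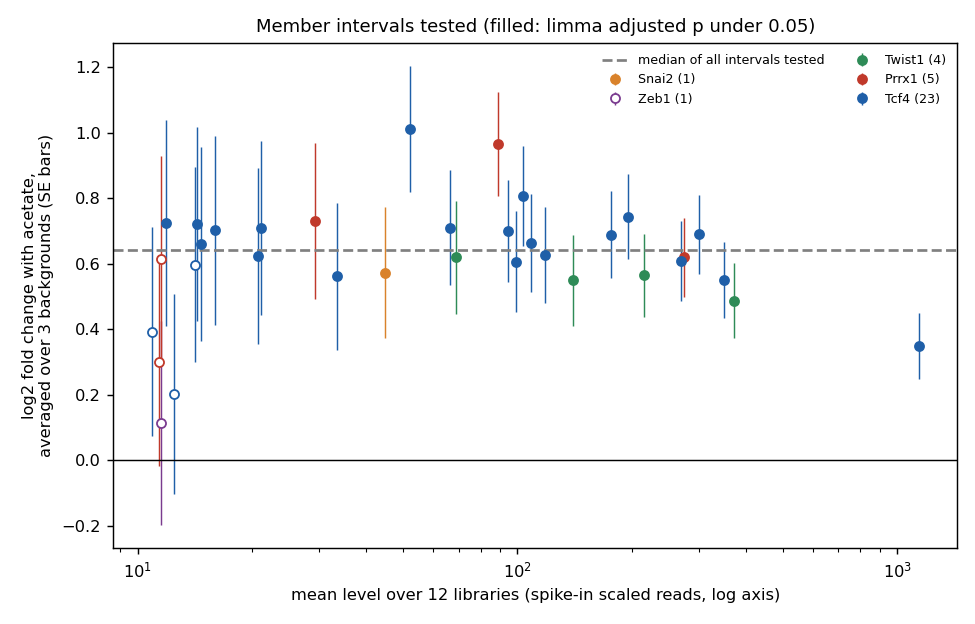
Log2 fold change with acetate averaged over 3 backgrounds (y axis, limma estimate with SE bars) against mean level (x axis, spike-in scaled reads, log axis) for the 34 member intervals tested. Colours are genes with the number of intervals tested, filled points passed an adjusted p of 0.05, and the dashed line is the median of all intervals, 0.64. The strongest Tcf4 interval, at 1142 scaled reads and 0.35, lies below the line, and the 6 open points lie between 10.9 and 14.2 scaled reads.

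A ratio within 1 library does not depend on its factor. The strongest interval held between 28.4% and 42.8% of the Tcf4 reads over the 12 libraries, with a mean of 31.8% in the 6 libraries with acetate and 36.7% in the 6 without, and was lower with acetate in 5 of 6 pairs of the same set and background. For Twist1 the means were 43.6% and 45.3%, lower in 4 of 6 pairs, and for Prrx1 58.8% and 61.4%, lower in 5 of 6 (the plot of shares). The pair that went the other way in Tcf4 holds the etomoxir + SB204990 library of set 2, where the share was 28.4%, against 42.8% in set 1. These ratios were chosen after the values were seen and were given no test, and the ranges with and without acetate overlapped in each gene. The same share was not worked out for other gene names, so whether it is particular to these genes was not tested.

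**Figure D5:**
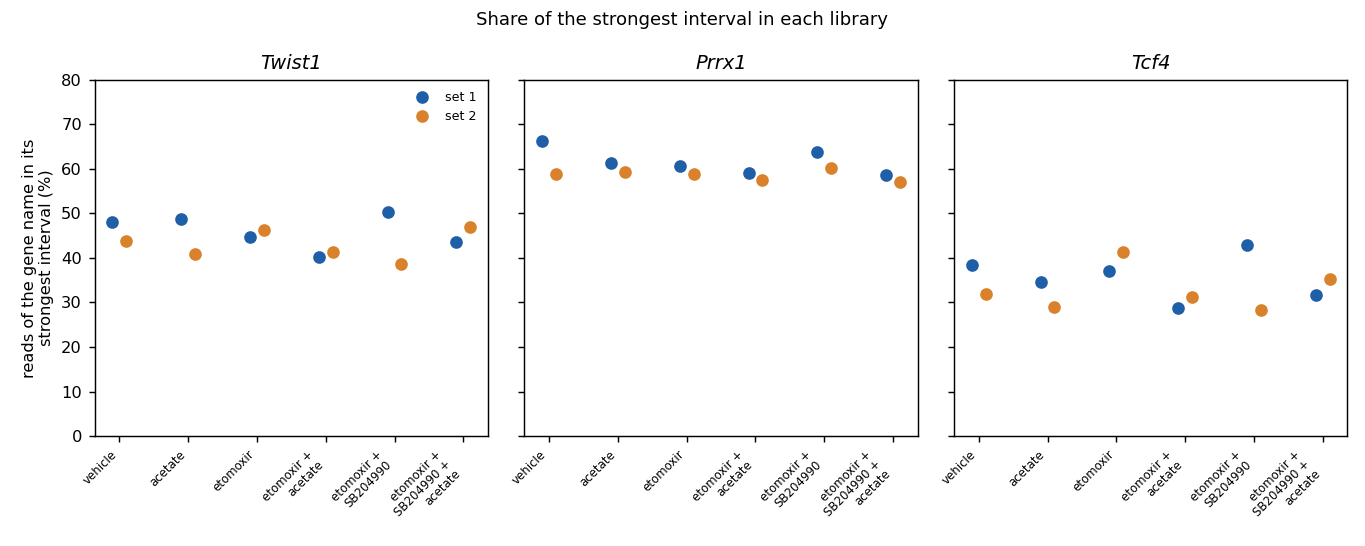
Percent of the reads of Twist1, Prrx1 and Tcf4 that fell in the strongest interval of each (y axis, from 0) in the 6 treatments (x axis). Points are libraries, blue for set 1 and orange for set 2. Etomoxir + SB204990 shows the widest gap between sets for Tcf4, 42.8% and 28.4%, and for Twist1, while for Prrx1 vehicle does, 66.2% and 58.9%.

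The gene names with the most similar pattern over the 12 libraries were sought after median-of-ratios scaling, among 13204 gene names (13205 for Snai1, Snai2 and Zeb1) with a mean of at least 100. For Tcf4 they were Ptrh2, Mtmr2 and A530053M12Rik with Pearson's r of 0.99 each, and for Twist1 Elk4, Txn1 and Hjurp with 0.99 each. The median gene name reached 0.80 with Tcf4, 0.81 with Twist1 and 0.63 with Prrx1, and 0.16 with Snai2, 0.18 with Zeb1 and -0.25 with Snai1. All points come from the same 12 libraries, which differ in depth. For Prrx1 the leading names were Gm33570, Lman2 and Rnh1 at 0.97, 0.97 and 0.96. For the low members they were 4930556J24Rik, Adrm1 and Cars for Snai1 (0.91, 0.87 and 0.86), Gm50020, Gap43 and Gm27246 for Snai2 (0.86, 0.85 and 0.85), and Stk11ip, Vps13d and Mme for Zeb1 (0.81, 0.79 and 0.78). Among the members r was 0.96 for Twist1 with Tcf4, 0.71 for Twist1 with Prrx1 and 0.59 for Prrx1 with Tcf4.

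Other genes of the programme moved with acetate much as the members did. Of 24 other EMT-linked factors and partners of basic helix-loop-helix proteins, 21 had an interval, and 20 of these rose over the averaged backgrounds and 0 fell, with a median of 0.62. Prrx2, a paralogue of Prrx1, rose by 0.81 ± 0.14 (SE, limma adjusted p = 2.79e-05), and Id2, an inhibitor of helix-loop-helix factors, by 0.78 ± 0.11 (limma adjusted p = 1.44e-05). Of 24 epithelial genes, among them targets that these factors repress, 20 had an interval and all 20 rose, with a median of 0.66. Ovol2, a repressor of Zeb1 in epithelial cells, rose by 0.83 ± 0.17 (limma adjusted p = 0.000123). Of 18 mesenchymal genes 17 were tested, 15 rose and 0 fell, with a median of 0.65. Over all gene names 88.2% rose. Col1a1, the gene of a fibrillar collagen chain, rose by 0.89 ± 0.12 (limma adjusted p = 1.44e-05). The medians of the epithelial and of the mesenchymal list both lay near that of all gene names, 0.63. For acetate against vehicle 0 genes of these 3 lists were called by limma (16, 14 and 10 unadjusted), against 0% of all gene names (8341 of 19458 unadjusted). With etomoxir 18 of 21, 19 of 20 and 13 of 17 rose with acetate, against 78.2% of all gene names, and with etomoxir + SB204990 19, 18 and 12, against 57.7%. No test of the lists against other genes was made.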

How the data were processed

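H3K27ac ChIP-seq of 12 libraries of 4T1 cells was analysed from 1 table of 126464 intervals. Per the study's methods, the authors ran nf-core/chipseq v1.2.2 on a merged GRCh38 and mm10 genome. Each library's factor came from the percentage of human spike-in reads and was divided by the highest factor. From the values it was inferred that the deposited signal is the read count of each interval multiplied by such a factor. These are the scaled reads, and in the 2 libraries with a factor of 1 the deposited values are the counts themselves. The submitters' notes also name deepTools. How intervals were called is not given in the sources used here. Dividing by the factor returned whole reads for 100% of values (tolerance 0.01), and there were 0 unused value columns.

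Groups followed the labels. limma 3.58.1 (R 4.3.3) with an intensity trend was fitted to log2(scaled value + 1), so that fold changes of low genes are understated, in 1 model of 6 group means over all 12 libraries. Features with a mean of at least 10 were tested, and p-values were adjusted by Benjamini-Hochberg over all 63903 intervals or all 19458 gene names. The scripts were tested on simulated data. On the recovered reads, edgeR 4.0.16 called 28 member intervals and 5 member genes for averaged acetate, and 17033 of all gene names as higher.

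Named were the 7 genes, the strongest interval of each and the one nearest its start, and per comparison up to 3 called intervals with a mean of at least 50, the largest changes and the same direction in both sets. Of the related lists up to 3 genes were named per comparison. Other intervals, and all sums by position (GENCODE M21 gene and 2 kb upstream), were chosen after their values were seen. The members and lists were chosen with earlier results of these data known. Alternatives covered the pseudocount, the minimum, scaling, the trend, edgeR, the libraries fitted, a replicate block and each library left out. Intervals are assigned to genes by the table, and overlapping or antisense genes cannot be told apart.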

Additional observations from a re-analysis of the deposited data

How the results depend on the processing

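Counts of called members are given as intervals, then gene names. For averaged acetate (28 and 5), median-of-ratios scaling gave 0 and 0 (0% of all features), scaling each library to its read total and then by its factor 0 and 0 (0% of all features), and a minimum mean of 50 gave 3 of the 3 gene names left to test (97.8% of all gene names). For acetate against vehicle (0 and 0), the minimum of 50 gave 4 intervals (25.6% of all intervals), and a fit of only those libraries 9 and 3 (23.3% and 61.5% of all features). For etomoxir + acetate against etomoxir (19 and 4), both scalings gave 0 and 0 (0% of all features), and only those libraries 30 intervals (83.96% of all intervals). For etomoxir + SB204990 + acetate against etomoxir + SB204990 (16 and 4), no filter gave 9 intervals (8.79% of all intervals), both scalings 0 and 0 (0% of all features higher), no intensity trend 0 intervals (0% of all), and only those libraries 0 and 0 (0% of all features higher). Only those libraries gave 16 and 4 for etomoxir + acetate against acetate (45.2% and 73.1%). For etomoxir + SB204990 against etomoxir they gave 1 interval, against 0.023% of all intervals higher and 0.86% lower. The minimum of 50 also gave 1 there, with 23 of all 24109 intervals higher and 49 lower. For etomoxir + SB204990 + acetate against etomoxir + acetate only those libraries gave 1 interval, against 5.97% of all intervals lower and 0% higher. Median-of-ratios scaling takes out a change common to all intervals by construction. The cause of the other changes was not tested.

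Median-of-ratios scaling turned the direction of 14 named values that were called on the spike-in scale, beside that of values not called, such as Zeb1 for averaged acetate (-0.47). For averaged acetate these were the log2 fold changes of Snai2 (-0.077), Tcf4 (-0.10) and Twist1 (-0.10) and of the strongest intervals of Prrx1 (-0.023), Twist1 (-0.16), Snai2 (-0.057) and Tcf4 (-0.30). With etomoxir they were Tcf4 (-0.27), Twist1 (-0.30), the strongest intervals of Prrx1 (-0.033) and Snai2 (-0.025), and the Tcf4 intervals starting at 69543183 (-0.18) and 69641474 (-0.12). With etomoxir + SB204990 it was the strongest Tcf4 interval (-0.016). Over all alternatives, leave-one-out included, a single value was compared with its reported one once per setting. Beside the 14 reversals, 2277 of these comparisons kept the direction and the side of the threshold, 202 moved, 135 lost and 48 gained a call.

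Leaving out 1 library gave 21 to 31 intervals and 4 to 5 gene names for averaged acetate (58.2% to 94.8% of all intervals and 81.2% to 98.5% of all gene names rose), 3 to 12 and 1 to 3 with etomoxir (8.05% to 27.03% and 28.8% to 57.3%), and 0 to 27 and 0 to 5 with etomoxir + SB204990 (3.31% to 71.6% and 0% to 91.4%). It gave 0 to 4 intervals for etomoxir + SB204990 against vehicle, 0 to 14 and 0 to 3 against etomoxir, and 0 to 6 and 0 to 2 for etomoxir + SB204990 + acetate against etomoxir + acetate. The other comparisons stayed at 0 and 0. A lone library is then assumed to vary like the other groups.

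Libraries of a set share a suffix and the scale of their factors. Correlations of the set differences between groups ran from -0.149 to 0.354, with 0.299, 0.327 and 0.354 among vehicle, acetate and etomoxir + SB204990 and the other 12 at most 0.0452. As the labels give the suffix no meaning and not every correlation was above 0.1, the pooled fit has no block. A difference in scale between the sets then enters its spread between libraries. With the replicate block, 30 and 5 were called for averaged acetate (81.2% and 90.3% of all features), 21 and 5 with etomoxir (63.7% and 83.1%), 16 and 4 with etomoxir + SB204990 (32.3% and 64.98%), 2 intervals and 0 gene names for acetate against vehicle (3.26% and 19.98%) and 1 interval for etomoxir + SB204990 against etomoxir (32 of all 63903 intervals higher and 48 lower). Depth limits the low members most, since 48 of the 82 intervals had a mean below 10 scaled reads and were not tested.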
